A study of Arabidopsis thaliana with 8 samples.

Results

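CHLM and AT1G74470 encode enzymes on the porphyrin and phytol branches of chlorophyll synthesis, and their transcripts were followed on 8 arrays of *Arabidopsis thaliana*. The probes were those whose platform annotation names exactly 1 gene, with that gene being CHLM or AT1G74470. This gave 2 probes, 1 per gene, of 692 probes named for a single gene and 3439 probes in all. The arrays carried total RNA, 4 of the atpd mutant and 4 of wild type (WT), each numbered as replicates 1 to 4. All plants were of ecotype Wassilevskija and had been raised on MS medium (Murashige and Skoog). The atpd mutant has no delta subunit of ATP synthase, the part that in the chloroplast enzyme joins the catalytic head to the membrane sector. The sources used here do not give the tissue, the age, the light or the kind of mutant allele, nor whether a genotype's arrays represent separate plants. The p-values therefore reflect array-to-array spread, which may be technical.

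Chlorophyll is assembled in the plastid from a porphyrin ring and a hydrophobic tail. After magnesium has been inserted into protoporphyrin IX, the CHLM protein, magnesium protoporphyrin IX methyltransferase, transfers a methyl group from S-adenosylmethionine to the ring, and the product is the substrate of the cyclase that closes the last ring of chlorophyll. AT1G74470, listed in the reference gene table as geranylgeranyl reductase, supplies the phytyl tail by reducing geranylgeranyl groups. Phytyl diphosphate is also used for tocopherols and phylloquinone, so the reductase serves more than chlorophyll.

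No probe is named for ATPD, so the missing subunit's own transcript could not serve as a check of the labels. The probe of LHB1B2, a chlorophyll-binding antenna protein and so a marker of green tissue, lay between the 99.1st and the 99.9th percentile of brightness on the 8 arrays. The deposited intensities have no stated unit and run from 0 to a ceiling of 100. Of the 3439 probes, 2921 had at least 3 values above 0 in each genotype and were tested, CHLM and AT1G74470 among them, each above 0 on all 8 arrays. The median above 0 was 0.613 to 0.705 on the atpd arrays and 0.279 to 0.303 on the WT arrays, so scaling between arrays bears on every value that follows.

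CHLM had deposited intensities of 0.897, 0.991, 0.813 and 0.793 on atpd replicates 1 to 4, against 0.430, 0.346, 0.515 and 0.451 on WT replicates 1 to 4. All 4 atpd values lay above all 4 WT values, as was so for 59.7% of the tested probes. The means were 0.873 ± 0.0902 in atpd and 0.436 ± 0.0700 in WT (SD, n = 4 each). The coefficient of variation was 10.3% in atpd and 16.1% in WT, where the median over the 2848 tested probes above 0 on all arrays was 11.2% in atpd and 24.7% in WT.

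AT1G74470 was the brighter probe, with deposited intensities of 2.97, 2.57, 2.19 and 2.12 on atpd replicates 1 to 4, against 2.41, 2.47, 1.76 and 1.62 on WT replicates 1 to 4. Here the genotypes overlapped, since atpd replicates 3 and 4 fell below WT replicates 1 and 2. The means were 2.46 ± 0.393 in atpd and 2.06 ± 0.437 in WT (SD, n = 4 each). Brightness also depends on how well a probe hybridises, so the higher value of AT1G74470 does not show that its transcript was the more abundant.

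**Figure D1:**
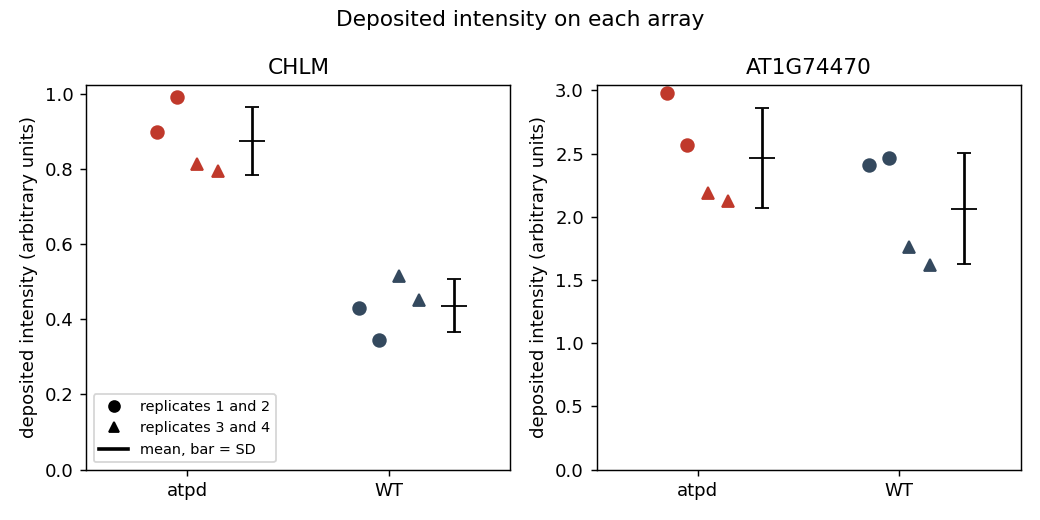
Deposited intensity (arbitrary units, linear axis from 0) of CHLM, on the left, and AT1G74470, on the right, for each atpd and WT array, with circles for replicates 1 and 2, triangles for replicates 3 and 4, and the mean with an SD bar beside them (n = 4 each). For CHLM every atpd value is above every WT value, while for AT1G74470 the genotypes overlap.

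The rank of a probe within its array is not altered by a factor common to that array. By rank, CHLM lay in the upper middle of the tested probes in both genotypes. Its percentile was 69.9, 74.0, 59.7 and 57.4 on atpd replicates 1 to 4, against 67.2, 58.0, 70.2 and 65.0 on WT replicates 1 to 4, and the ranges overlapped widely. The means were 65.2 ± 7.98 in atpd and 65.1 ± 5.18 in WT (SD, n = 4 each), which corresponds to a rank from the brightest of 759 to 1246 in atpd and 863 to 1221 in WT. The difference was 0.13 percentile points (SE 4.52, 95% confidence interval -10.4 to 10.7, adjusted p = 0.985 with limma). A shift of up to 10 points either way is thus within the interval.

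AT1G74470 stayed near the top of every array. Its percentile was 95.8, 95.2, 94.3 and 94.0 on atpd replicates 1 to 4, against 95.7, 95.7, 93.6 and 93.0 on WT replicates 1 to 4. The means were 94.8 ± 0.817 in atpd and 94.5 ± 1.39 in WT (SD, n = 4 each), and its rank from the brightest was 123 to 175 in atpd and 126 to 204 in WT. The difference was 0.34 percentile points (SE 1.61, 95% confidence interval -3.4 to 4.1, adjusted p = 0.884 with limma). Because limma shares the spread over probes, this SE lay above both genotype SDs of AT1G74470. The interval is thus wider than this probe's own spread would give if the 4 arrays of a genotype were independent. With replicates 1 and 2, and replicates 3 and 4, of a genotype as pairs in a random block, it widened to -4.96 to 5.65. That of CHLM widened to -15.1 to 15.4. On this rank scale limma called 0 of the 2 members (0 also at an unadjusted p under 0.05), and 47.5% of all tested probes.

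**Figure D2:**
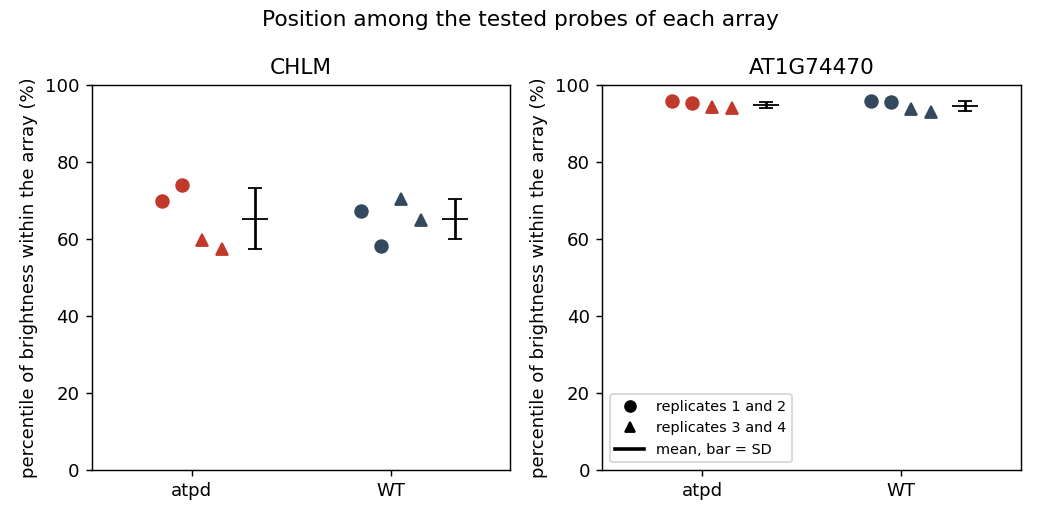
Percentile of brightness among the tested probes of the same array (0 to 100%) for CHLM and AT1G74470 on each atpd and WT array, with circles for replicates 1 and 2, triangles for replicates 3 and 4, and the mean with an SD bar (n = 4 each). CHLM spreads from 57.4 to 74.0 with no separation of the genotypes, and AT1G74470 stays between 93.0 and 95.8.

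After quantile normalisation, which gives all arrays the same distribution, neither transcript passed the test between genotypes. On the normalised log2 scale CHLM was at -0.59, -0.44, -0.90 and -0.98 on atpd replicates 1 to 4, against -0.64, -0.91, -0.55 and -0.72 on WT replicates 1 to 4. The log2 change of CHLM was -0.018 (SE 0.17, adjusted p = 0.938 with limma), with a 95% confidence interval from 0.758-fold to 1.29-fold. AT1G74470 was at 1.42, 1.25, 1.02 and 0.95 on atpd replicates 1 to 4, against 1.40, 1.39, 0.90 and 0.77 on WT replicates 1 to 4. Its log2 change was 0.046 (SE 0.20, adjusted p = 0.867 with limma), with an interval from 0.755-fold to 1.41-fold. Changes inside these intervals are compatible with this fit. With the replicate number as a block, the log2 interval was -0.46 to 0.42 for CHLM and -0.26 to 0.35 for AT1G74470.

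The call rate on these arrays was high. With the same fit, limma called 0 of the 2 members (0 also at an unadjusted p under 0.05) and 51.8% of all tested probes, 21.4% higher and 30.4% lower in atpd. For the single-gene probes the rate was 52.3%. The median log2 change of all tested probes was -0.090. In absolute size the change of CHLM exceeded that of 1.68% of the tested probes and the change of AT1G74470 that of 4.18%. The standard errors of the members were below the median of all tested probes, 0.22.

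**Figure D3:**
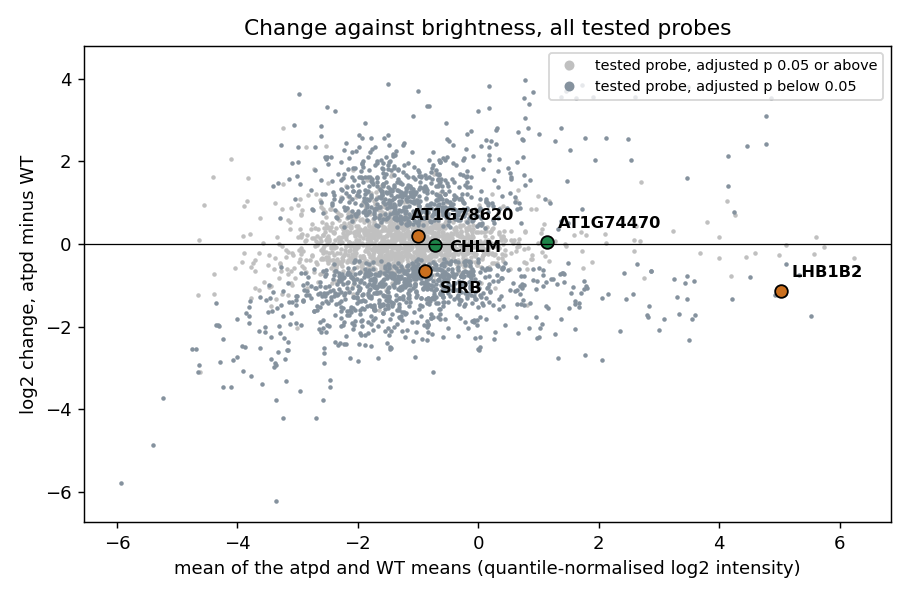
Log2 change (atpd minus WT) against brightness (mean of the genotype means, quantile-normalised log2 intensity) for each of the 2921 tested probes, in darker grey where limma's adjusted p is below 0.05. CHLM and AT1G74470 (green) lie on the zero line, while SIRB and LHB1B2 (orange) lie below it and AT1G78620 (orange) a little above.

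How the arrays are scaled decides what can be said of either transcript. With the values as deposited, the log2 change of CHLM was 1.01 (SE 0.16, adjusted p = 0.000607 with limma), or 2.02-fold, and 62.6% of all tested probes were called higher on that scale. The median change of all tested probes was then 0.996, so CHLM lay 0.017 above the median probe. The change of AT1G74470 as deposited was 0.27 (SE 0.19, adjusted p = 0.238 with limma), or 1.20-fold and 0.73 below the median probe.

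With the arrays brought to a common median, CHLM was at -0.16 (adjusted p = 0.499 with limma) and AT1G74470 at -0.90 (SE 0.24, adjusted p = 0.0116 with limma), a call shared in that direction by 32.9% of the tested probes. After cyclic loess, which removes differences that depend on brightness, CHLM was at 0.060 (adjusted p = 0.775) and AT1G74470 at 0.54 (SE 0.21, adjusted p = 0.0647 with limma, unadjusted p = 0.0327), where 47.3% of the tested probes were called. The estimate for AT1G74470 thus ran from 0.535-fold to 1.45-fold over the 4 scalings. Apart from the deposited scale, CHLM stayed between 0.898-fold and 1.04-fold.

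The deposited distributions of the genotypes differed by unlike amounts at the brightness of each probe. At the mean percentile of CHLM, 65.2, the intensity was 0.853 on the atpd arrays and 0.432 on the WT arrays (geometric means), a log2 difference of 0.98. At that of AT1G74470, 94.7, it was 2.33 on the atpd arrays and 2.02 on the WT arrays, a log2 difference of 0.21. The deposited changes of the members, 1.01 and 0.27, lay close to these values. That closeness follows from mean percentiles that were alike in the genotypes, so it restates the rank result. A change in the mutant's RNA and a difference in how the arrays of each genotype were measured cannot be told apart here.

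**Figure D4:**
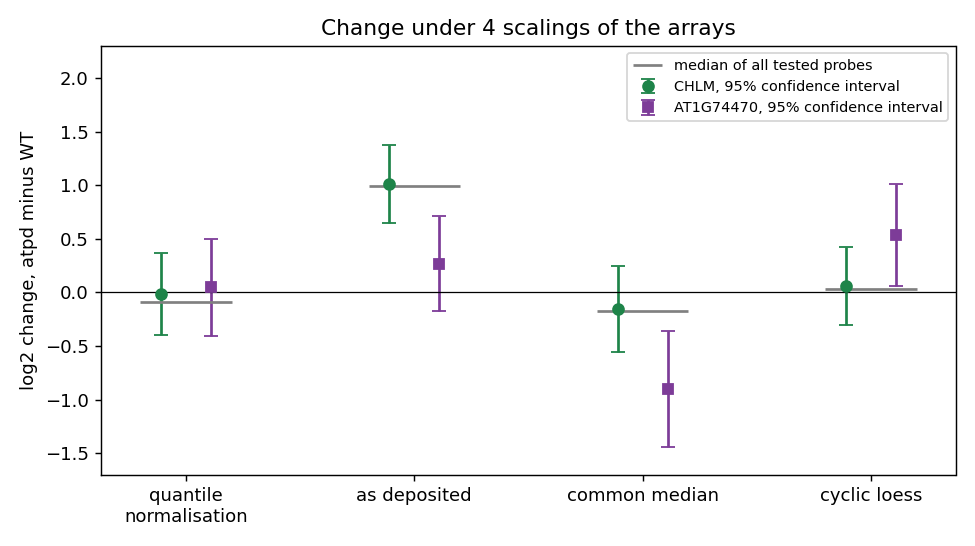
Log2 change (atpd minus WT) of CHLM (green circles) and AT1G74470 (purple squares) with limma's 95% confidence interval under 4 scalings of the arrays, beside the median change of all tested probes (grey lines). CHLM follows the grey line in each scaling, while AT1G74470 lies 0.73 below it as deposited and with a common median and above it after cyclic loess.

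Relative to CHLM on the same array, AT1G74470 was lower in atpd as deposited. The ratio of the AT1G74470 intensity over the CHLM intensity was 3.32, 2.59, 2.69 and 2.68 on atpd replicates 1 to 4, against 5.61, 7.13, 3.41 and 3.59 on WT replicates 1 to 4. All 4 atpd ratios lay below all 4 WT ratios, with a narrow gap to WT replicates 3 and 4. The mean ratio was 2.82 ± 0.334 in atpd and 4.94 ± 1.77 in WT (SD, n = 4 each). The log2 difference was -0.75 (exact two-sided permutation test, p = 0.0286, the smallest that 4 against 4 arrays can give).

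This separation was common: of the other tested probes, 25.4% gave a ratio over CHLM that was lower in atpd without overlap, and 44% a ratio that did not overlap in either direction. A ratio cancels a factor common to the array but not a difference that depends on brightness. The log2 difference was 0.065 after quantile normalisation (exact permutation p = 0.771) and 0.48 after cyclic loess (exact permutation p = 0.20), so its direction turned with the scaling. It was -1.11 in replicates 1 and 2 and -0.38 in replicates 3 and 4 as deposited. Without WT replicate 2 it was -0.55 (exact permutation p = 0.0571), while without WT replicate 1, 3 or 4 the exact permutation p was 0.0286. Leaving out 1 atpd array gave an exact permutation p of 0.0857 to 0.114, although the remaining atpd ratios still lay below all WT ratios.

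**Figure D5:**
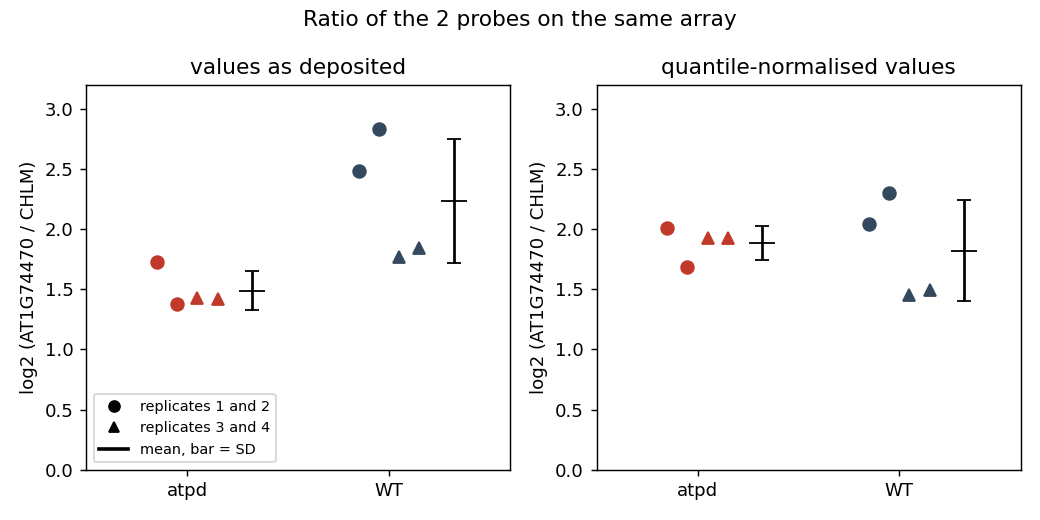
Log2 ratio of AT1G74470 over CHLM on each atpd and WT array, as deposited on the left and after quantile normalisation on the right, with circles for replicates 1 and 2, triangles for replicates 3 and 4, and the mean with an SD bar (n = 4 each). As deposited the atpd ratios lie below the WT ratios, and after normalisation the genotypes overlap.

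Over all probes, replicates 1 and 2 resembled each other within a genotype, and so did replicates 3 and 4. Deviations from the genotype mean correlated at 0.61 and 0.78 within these pairs in atpd and at 0.23 and 0.21 in WT. Deviations of 4 arrays from their own mean sum to 0, which pushes such correlations below 0 unless arrays are alike, so the negative values between pairs are not read. The labels do not say what the pairs are. AT1G74470 was brighter in replicates 1 and 2 than in replicates 3 and 4 in both genotypes, by 1.29-fold in atpd and 1.44-fold in WT. CHLM was brighter in replicates 1 and 2 in atpd, by 1.18-fold, but dimmer there in WT, at 0.803-fold. The median probe was at 0.964-fold in atpd and 1.02-fold in WT.

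The genotype difference of CHLM was positive in each pair as deposited, with log2 changes of 1.29 in replicates 1 and 2 and 0.74 in replicates 3 and 4. By rank and after quantile normalisation it had opposite signs in the pairs. Its percentile was 9.33 points higher in atpd in replicates 1 and 2, while the difference was -9.06 points in replicates 3 and 4. Its normalised log2 change was 0.27 in the lower-numbered pair and -0.30 in the other. Tested as an interaction of genotype and pair, the log2 changes differed by -0.57 (SE 0.19, unadjusted p = 0.0267, adjusted p = 0.123 with limma), so the difference did not pass, where 8.63% of the tested probes did. The normalised change of CHLM over all arrays, close to 0, thus joins pairs that differ in sign. For AT1G74470 the normalised log2 change was -0.063 in replicates 1 and 2 and 0.16 in replicates 3 and 4 (interaction 0.22, SE 0.16, adjusted p = 0.423 with limma).

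Across the 8 arrays the normalised log2 values of the members correlated at r = 0.19, and 72.3% of single-gene probes were less like CHLM than AT1G74470 was. The arrays share genotype and pair, so these coefficients are a description. Among 570 single-gene probes above 0 on every array, the patterns most like that of CHLM were those of AT1G05860 (r = 0.88), AT4G33480 (r = 0.84) and AT5G06990 (r = 0.80). AT1G05860 averaged 0.288 ± 0.0229 in atpd and 0.122 ± 0.0286 in WT (SD, n = 4 each) and had a normalised log2 change of -0.10 (adjusted p = 0.721 with limma). The patterns most like that of AT1G74470 were those of AT2G39670 (r = 0.93), AT2G35390 (r = 0.90) and THIC (r = 0.89), an enzyme of thiamine synthesis. AT2G39670 averaged 0.533 ± 0.0766 in atpd and 0.196 ± 0.0549 in WT (SD, n = 4 each), with a normalised log2 change of 0.20 (adjusted p = 0.519 with limma). These genes were picked for following members that did not pass between genotypes on the same arrays, so nothing is read from their own changes.

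The surrounding pathways were thinly covered. Of 88 loci in 8 lists (the magnesium branch, the early tetrapyrrole steps, heme and siroheme, plastid isoprenoid supply, phytol and tocopherols, carotenoids, chlorophyll breakdown and antenna proteins), 5 had a probe of their own, CHLM and AT1G74470 included, and 5 others appeared only in probes named for several genes, which were not used. CHLM was the only one of the 13 loci of the magnesium branch with such a probe, so no statement on that branch can be made. Of the 5 tested genes, 0 were higher and 2 (SIRB and LHB1B2) lower in atpd with limma, where 21.4% of all tested probes were higher and 30.4% lower, and their median log2 change was -0.018 beside -0.090 over all tested probes. The count moved with the scaling. As deposited 2 were higher (CHLM and AT1G78620) and 1 lower (LHB1B2), where 62.6% of all tested probes were higher and 8.9% lower. At a common median 0 were higher and 3 lower, where 18.7% of all tested probes were higher and 32.9% lower. After cyclic loess 0 were higher and 1 lower, where 22.6% of all tested probes were higher and 24.7% lower.

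SIRB, the ferrochelatase of the siroheme branch, fell by 0.65 on the normalised log2 scale (SE 0.15, adjusted p = 0.00629 with limma). Its percentile was 45.2 to 54.3 in atpd and 65.8 to 78.1 in WT, with no overlap, as was so in that direction for 27.9% of the tested probes, but its deposited intensity was 0.653 ± 0.0114 in atpd and 0.501 ± 0.116 in WT (SD, n = 4 each), a log2 change of 0.41 (adjusted p = 0.0539 with limma). Treating array pairs as a random block ended the call (adjusted p = 0.0788 with limma), as did averaging the pairs (adjusted p = 0.155 with limma).

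AT1G78620, which stands in the phytol list beside AT1G74470 and carries only its locus tag in the reference table, differed between the pairs of arrays. Its deposited intensities were 0.427, 0.486, 1.18 and 1.20 on atpd replicates 1 to 4, against 0.394, 0.321, 0.236 and 0.321 on WT replicates 1 to 4. Its log2 change did not pass over all arrays (0.19, SE 0.39, adjusted p = 0.712 with limma). It was -0.73 in replicates 1 and 2 alone (adjusted p = 0.0204 with limma) and 1.13 in replicates 3 and 4 alone (adjusted p = 0.00886 with limma), and the error within a pair is only the spread of 2 arrays per genotype. The difference between the pairs was 1.87 (SE 0.24, adjusted p = 0.0123 with limma, interaction of genotype and pair). Its error is likewise the spread of arrays within pairs, and 8.63% of the tested probes passed that interaction test. As deposited the change over all arrays was 1.23 (adjusted p = 0.0187 with limma). On that scale it was 0.36 in replicates 1 and 2 alone (adjusted p = 0.121 with limma). In replicates 3 and 4 alone it was 2.11 (adjusted p = 0.00258 with limma). The sign in replicates 1 and 2 thus turned with the scaling.

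LHB1B2, whose protein binds the finished chlorophyll, was at 20.2 ± 2.79 in atpd and 62.3 ± 3.70 in WT (SD, n = 4 each) and fell by 1.14 on the normalised log2 scale (SE 0.17, adjusted p = 0.000717 with limma). Its change was -1.63 as deposited (adjusted p = 2.67e-05 with limma), -2.80 at a common median (adjusted p = 9.03e-06 with limma) and -0.37 after cyclic loess (adjusted p = 0.0562 with limma). The antenna family holds close copies, and this probe may also read the relatives of LHB1B2. The differences between the change of LHB1B2 and those of CHLM and AT1G74470 were not tested.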

How the data were processed

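Total RNA of 4 atpd and 4 WT arrays was measured, with genotype and replicate number taken from the sample titles. The authors deposited an intensity per probe and array. The sources used here give neither its background correction nor its scaling or ceiling. There is no depth, and precision is limited by the number of arrays.

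Genes were assigned to probes through the supplied platform annotation and the reference gene table (TAIR10.1, names only). Values of 0 were treated as missing, log2 values were quantile-normalised over all probes above 0, and 2921 probes with at least 3 values per genotype were fitted with limma 3.58.1 (R 4.3.3, lmFit and eBayes, two-sided, Benjamini-Hochberg over all tested probes, threshold 0.05). The fit was also run on simulated data whose arrays were independent and of a common scale. That run cannot tell how the fit behaves with like pairs of arrays or with unlike array medians. Changes are log2 atpd minus WT. Percentiles are ranks among the tested probes of an array and were fitted likewise. The ratio was tested by exact permutation of the 8 arrays.

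The members and lists were chosen with earlier results of these data known. Of 88 list labels, 86 were found in the reference table, and DVR and the label of AT1G78620 were not. Named genes were the members, all list loci with a tested probe of their own, and for each member the 3 single-gene probes most correlated with it.

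Same-numbered atpd and WT arrays correlated at 0.283 to 0.374 in their deviations from the genotype means, all over 0.1, so the numbers were taken to pair the arrays. Differently numbered arrays of the same set (1 and 2, or 3 and 4) correlated at 0.184 to 0.289, so the number may mark little more than the set. Alternatives were other scalings, filters and treatments of zeros (a pseudocount of 0.1 among them), the replicate block, array pairs as a block (duplicateCorrelation, statmod 1.5.0) or alone, and each array left out. Deposited values within pairs or with the replicate block, and the interaction of genotype and pair, were added after the data were seen.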

Additional observations from a re-analysis of the deposited data

Results flagged for a closer look

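For CHLM, AT1G74470, SIRB, AT1G78620 and LHB1B2, each genotype's 4 arrays were examined for a value with a wide gap to the others. Of 10 such groups, 1 held such a value, and chance gives about 1 in 20. SIRB was at -0.26 on the normalised log2 scale on WT replicate 4, against -0.63, -0.63 and -0.69 on WT replicates 1 to 3. No array of CHLM or AT1G74470 stood apart in this way.

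The log2 change of AT1G78620 in replicates 3 and 4 exceeded that in replicates 1 and 2 by 1.87 (interaction of genotype and pair, adjusted p = 0.0123 with limma), where 8.63% of the tested probes passed. The adjusted p of this interaction ran from 0.0123 to 0.0223 over the 4 scalings. The labels do not define these pairs of arrays, and what sets them apart was not tested.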

How the results depend on the processing

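The calls of CHLM and AT1G74470 depended on the scaling, and their direction, with estimates near 0, on many settings. CHLM turned from -0.018 to 1.01 as deposited (1.01 also with the replicate block there, 1.29 in replicates 1 and 2 and 0.74 in replicates 3 and 4), 0.060 after cyclic loess and 0.27 in replicates 1 and 2 alone. AT1G74470 turned to -0.90 with a common median and -0.078 in replicates 1 and 2 alone. It passed at 0.35 as deposited in replicates 3 and 4 alone, where 2133 probes were called, 1820 of them higher. In percentile points, CHLM turned to -0.67 ranked among all probes, -2.23 among single-gene probes and -9.06 in replicates 3 and 4 alone, and AT1G74470 to -0.80 among single-gene probes and -0.17 in replicates 1 and 2 alone. The cause was not tested. Leaving out each array gave changes of -0.12 to 0.067 for CHLM, -0.066 to 0.14 for AT1G74470 and -0.052 to 0.47 for AT1G78620, percentile differences of -2.80 to 2.76 for CHLM and -0.16 to 0.74 for AT1G74470, and log2 ratios of -0.90 to -0.55.

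In the paired analysis with the replicate block, CHLM stayed at -0.018 (adjusted p = 0.937 with limma) and AT1G74470 at 0.046 (adjusted p = 0.765), and the block changed no call of the 5 tested list genes. The ratio turned to 0.065 after quantile normalisation and 0.48 after cyclic loess. It stayed at -0.75 with the replicate block (exact sign flips, p = 0.125, the smallest that 4 pairs can give) and with means of array pairs, and was -1.11 in replicates 1 and 2 and -0.38 in replicates 3 and 4, where 2 against 2 arrays cannot pass. SIRB turned to 0.41 as deposited (0.59 in replicates 1 and 2, 0.22 in replicates 3 and 4, 0.41 with the replicate block), and AT1G78620 to -0.73 in replicates 1 and 2 alone. Over all tested probes, 1513 calls became 924 with array pairs as a random block and 686 with their means, in which fewer independent units enter, and 1656 with the replicate block. As deposited, 1829 were higher and 260 lower, against 625 and 888.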
